A study of Mus musculus with 8 samples.

Results

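The cells described here are venous endothelial cells of mouse mesentery and epididymal fat that were marked by Adgrg6, Selp, Sele, Rnd1, Amigo2 and Slco2a1. They were picked by rule from single-cell RNA counts: a barcode with at least 500 UMIs (counted molecules), at least 300 genes and at most 10% mitochondrial UMIs, at least 3 of the 6 markers with a UMI, a UMI of Pecam1 or Cdh5, and no UMI of Gja5, Prox1, Ptprc or Adipoq. The rule took 1472 of the 27944 deposited barcodes, or 9.47% of the 15540 endothelial cells, which are the barcodes within the same limits that had a UMI of Pecam1 or Cdh5 and none of Ptprc or Adipoq. The study asked what an obesogenic diet does to endothelial cells. All mice were male ROSA26-eYFP+/+ Cdh5-CreERT2+ animals, in which the Cdh5 promoter drives a tamoxifen-dependent recombinase in endothelium, and all ate tamoxifen food from 6 weeks of age for 2 weeks so that endothelial cells turned on YFP. At 8 weeks the food became normal chow with 5.8% fat, or a high fat diet with 60% fat, for another 12 to 13 weeks. YFP-sorted cells of the mesentery or of the epididymal fat were sequenced from pools of 6 mice, with about 5000 cells aimed for in each. Each of the 4 groups (the mesentery and the adipose tissue, on either diet) had 2 libraries, 1 from each of 2 runs of the experiment, called run A and run B.

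Venules are the segment of the circulation where leukocytes leave the blood. Their endothelium carries P-selectin (Selp) and E-selectin (Sele), which slow passing leukocytes, and then ICAM-1 and VCAM-1, to which leukocytes bind firmly. P-selectin is stored with von Willebrand factor (Vwf) in Weibel-Palade bodies and is brought to the surface within minutes, whereas E-selectin has to be transcribed after the cell is activated. Of the other markers, Adgrg6 is an adhesion G protein-coupled receptor, Rnd1 a small GTPase, Amigo2 a leucine-rich repeat membrane protein and Slco2a1 the transporter that takes up prostaglandins.

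The genes lie in GRCm38 as follows: Adgrg6 at chr10:14402583-14545659 on the minus strand, Selp at chr1:164115264-164150026 and Sele at chr1:164048234-164057677 on the plus strand, Slco2a1 at chr9:102988712-103096002 on the plus strand, and Amigo2 at chr15:97244125-97247287 and Rnd1 at chr15:98663421-98677461 on the minus strand. The 250 bases before the start of Sele and Selp, 2 selectins on chromosome 1, are shown because both had lower levels in run B than in run A. Over all endothelial cells Rnd1, Slco2a1 and Adgrg6 were also lower in run B. The bases are from RefSeq on GRCm38.p6, 5′ to 3′ on the plus strand. Capitals mark matches, on either strand, to 3 strings that were searched in the RefSeq windows of 5 of the 6 markers: GGNNNTTCC (a form bound by NF-kB), TGACTCA (the AP-1 element) and TATAAA (the TATA box).
Sele, chr1:164047984-164048233: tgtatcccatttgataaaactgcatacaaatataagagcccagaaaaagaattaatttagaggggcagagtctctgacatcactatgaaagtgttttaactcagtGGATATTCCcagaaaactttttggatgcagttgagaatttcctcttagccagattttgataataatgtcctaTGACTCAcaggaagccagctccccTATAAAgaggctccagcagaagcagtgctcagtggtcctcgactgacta
Selp, chr1:164115014-164115263: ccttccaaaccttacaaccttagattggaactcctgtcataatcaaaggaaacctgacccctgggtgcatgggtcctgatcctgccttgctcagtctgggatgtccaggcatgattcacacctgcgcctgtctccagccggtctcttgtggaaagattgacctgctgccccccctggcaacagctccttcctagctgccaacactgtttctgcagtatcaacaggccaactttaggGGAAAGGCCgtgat
The Sele window held all 3 strings, the NF-kB form at -145 to -137, the AP-1 element at -73 to -67 and the TATA box at -49 to -44, counted back from the first base that RefSeq gives for the gene. The Selp window held only the NF-kB form, on the minus strand at -14 to -6. Slco2a1 had a TATA box at -29 to -24, and the windows of Adgrg6 and Amigo2 had none of the 3 strings. Rnd1 had no window in the RefSeq set used and was not searched. The RefSeq windows of Slco2a1 (chr9:103008237-103008486) and Adgrg6 (chr10:14545037-14545286) lie inside the gene intervals given above, which come from GENCODE and start further upstream. Of 32851 such windows over all genes, 15.66% held the NF-kB form, 4.463% the AP-1 element and 12.37% the TATA box, so a match is a description of these letters only.

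The libraries held 3461360 to 6714473 UMIs in run A and 18829960 to 36779289 in run B, and the median selected cell held 2339 to 6842 UMIs against 1514 to 4328 in the other endothelial cells of its library. The selected cells came in like numbers from run A (701) and run B (771), but 859 of them (58.4%) came from the mesentery on chow. The thinnest library was the mesentery on high fat diet in run A, with 55 cells. The count tables of the 2 runs carry different feature lists and software versions, so the run stands for everything that differed between the 2 times the experiment was done. No barcode of a selected cell was shared between libraries, while all barcodes together gave 101 shared barcodes over the 28 pairs of libraries. The Adipoq condition removed 24.1% and 45.0% of the endothelial barcodes of the mesentery and adipose chow libraries of run B, and 0 to 6.65% in the other 6. In immune cells of the mesentery and adipose chow libraries of run B, 2.14% (3 of 140) and 0% (0 of 25) of barcodes had an Adipoq UMI. The second share rests on few cells.

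Among the 1472 cells, 596 had 3 of the 6 markers, 563 had 4, 213 had 5 and 100 had all 6. Slco2a1 and Selp were the steady markers: Slco2a1 had a UMI in 87.2 to 97.9% of the cells of a library and Selp in 82.4 to 95.2%. Adgrg6 was found in 36.5 to 69.7% of cells in run A and 69.7 to 83.9% in run B, and Amigo2 in 14.8 to 49.1% and 55.0 to 84.1%. Sele and Rnd1 were markers of run A. In run A, Sele had a UMI in 54.2% of the cells of the mesentery on chow, 62.6% of the adipose on chow, 41.8% of the mesentery on high fat diet and 44.0% of the adipose on high fat diet. In run B the same 4 shares were 0.744%, 4.93%, 5.98% and 17.4%. Rnd1 went from 70.7 to 92.1% in run A to 10.3 to 13.8% in run B. No library of run B reached any library of run A for either gene. With every cell thinned to 1000 UMIs, Sele was found in 21.8 to 38.5% of the selected cells in run A and 0 to 2.13% in run B. Sele and Rnd1 occurred together in 48.8% of the selected cells of run A and 1.43% of those of run B, and Adgrg6 and Amigo2 together in 28.7% and 58.2%. These shares are description, since the 6 genes chose the cells.

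**Figure D1:**
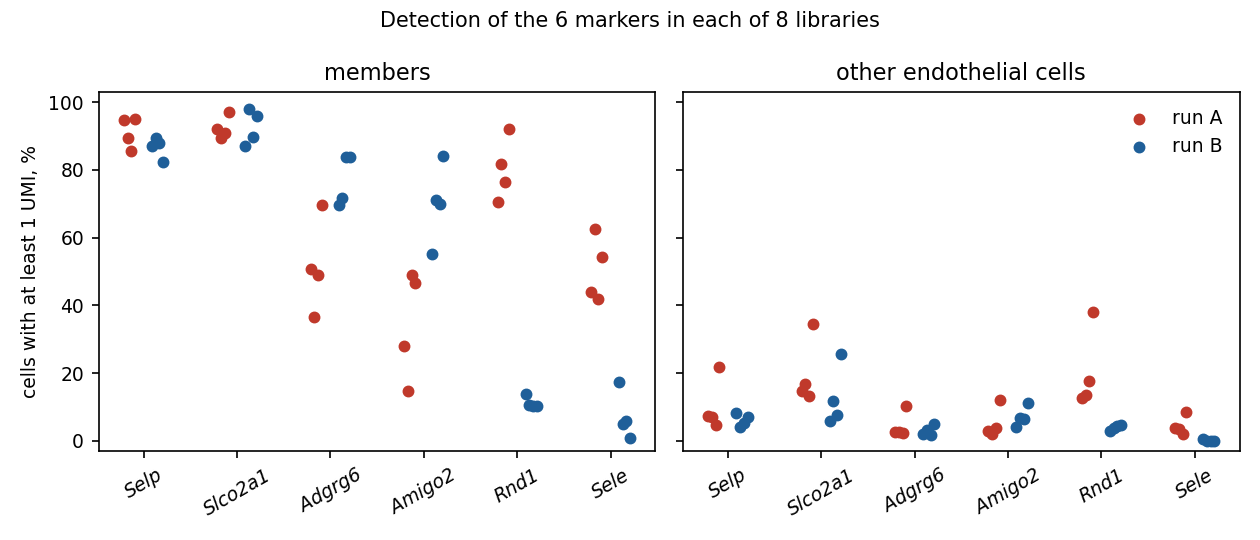
Percent of cells with at least 1 UMI (y axis) of each of the 6 markers (x axis) in the selected cells and in the other endothelial cells, 1 point per library, coloured by run. Among selected cells Slco2a1 and Selp stay at 82.4% or more in all 8 libraries, while Sele and Rnd1 lie far lower in the 4 libraries of run B than in the 4 of run A.

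The background level of a marker was read from cells with a Ptprc UMI, which are immune cells. There, Sele was found in 0 to 1.10% and Adgrg6 in 0 to 13.8% of cells, the highest Adgrg6 value coming from the adipose library on high fat diet of run B, whose immune cells held a median of 12368 UMIs. In the other endothelial cells Sele was found in 2.17 to 8.61% of cells in run A and 0.113 to 0.606% in run B. At 0.744%, the Sele share of the run B mesentery on chow rests on 3 counts and lies within the range of the immune cells. It is therefore not read as signal, though that range spans both runs and was not set for run B alone. Without Sele and Rnd1, the other 4 markers alone would have kept, at the limit of 3, 36.5% to 77.0% of the selected cells of a run A library and 83.5% to 96.8% of those of a run B library. The run therefore enters the choice of the cells themselves, and a second choice, with at least 2 of Adgrg6, Selp, Amigo2 and Slco2a1, was made after seeing these shares and is given beside the results it touches.

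Over all 15540 endothelial cells the log2 differences between run B and run A, with the groups in the fit, were -6.34 ± 0.65 for Sele, -4.69 ± 0.36 for Rnd1, -2.56 ± 0.37 for Selp, -1.49 ± 0.19 for Slco2a1, -0.90 ± 0.26 for Adgrg6 and -0.11 ± 0.24 for Amigo2. These too are description and carry no test, since the selected cells hold much of these counts, 1176 of 1522 for Sele and 2789 of 4007 for Rnd1 in the run A mesentery on chow.

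The venous label held in genes that the rule did not name. They are given as description, since genes correlated with the markers are higher by the choice of cells. Vwf had a UMI in 92.2% to 100% of the selected cells of a library against 18.2% to 36.8% of the other endothelial cells. Its level in CPM (counts of the summed cells, scaled to the same total in each library) was 1521 to 2959 in the selected cells, with a median over the 8 libraries of 2363, against a median of 368 in the others, and the fold within a library was 3.26 to 13.8. Ackr1, the atypical chemokine receptor of venules, stood 3.81- to 31.0-fold higher, at 132 to 416 CPM. It was still lower there than in the 327 endothelial cells with Ackr1 UMIs that make up a second venous group, where the median was 516 CPM by choice of those cells. These 327 cells are also counted among the other endothelial cells. The folds over the other cells, here and below, therefore do not tell the selected cells from that second venous group. Among genes of at least 50 CPM in either class in every library, 11.7% of 2564 were higher in the selected than in the other endothelial cells in all 8 libraries and 13.6% were lower. Over all 20785 genes with a count the shares were 2.52% and 7.55%. Among the 12 with the highest median ratio were Ackr1 (11.1-fold), Vwf (7.83-fold), Plekha7 (7.39-fold), Ptgs1 (6.34-fold), Myof (6.32-fold), Bst1 (5.28-fold), Myrip (5.11-fold), AU021092 (5.07-fold), Bace2 (4.86-fold), Bmp4 (4.85-fold) and Lrg1 (4.57-fold).

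Weibel-Palade body and prostanoid genes stood among them. Myrip, a linker of secretory granules to the cytoskeleton, and Rab27a, the GTPase on those granules, were both higher in all 8 libraries, with Vwf, Thbd (thrombomodulin) and Procr (the protein C receptor, 4.28-fold in the median). Of the 15 genes of the haemostasis and Weibel-Palade list, Vwf, Rab27a, Thbd, Procr and Mmrn2 were higher in all 8 libraries, and Cd63, Angpt2, Plat and F3 were lower in all 8. For prostanoids, Ptgs1 (cyclooxygenase-1) lay at 238 to 437 CPM against a median of 55.6 CPM in the others, and Ptgs2 (cyclooxygenase-2) was 4.22-fold higher in the median. Of the 10 prostanoid genes these 2 were higher in all 8 libraries and Ptges and Ptger4 lower in all 8.

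For leukocyte adhesion, Vcam1 was 4.38-fold and Icam1 3.78-fold higher in the median, and with Cd34, Jam2 and Emcn they were the 5 of 14 listed genes that were higher in all 8 libraries. F11r and Podxl were lower in all 8. Of 15 venous identity genes 9 were higher in all 8 libraries (Vwf, Ackr1, Lrg1, Vcam1, Icam1, Il1r1, Cpe, Tll1 and Tmem252) and none was lower. Both genes of venous fate stood apart from these. Nr2f2, the transcription factor that sets venous identity, had a median ratio of 1.04 and was higher in 4 of 8 libraries, and Ephb4, the venous ephrin receptor, a median ratio of 1.41 and 6 of 8. The other cells in these ratios include lymphatic cells, whose list summed to 753 to 8112 CPM there. What each type of other cell adds to the ratios was not tested. Arterial genes were lower in all 8 libraries for 8 of 14, among them Hey1 at 0.0650 of the level in the others, Gja4 at 0.0906, Dll4 at 0.158 and Efnb2 at 0.517, where the rule itself removed cells with Gja5. Of the lymphatic genes 7 of 9 were lower in all 8, where the rule removed cells with Prox1. Ccl21a lay at 0.00760 of the level in the others, Mmrn1 at 0.0106, Lyve1 at 0.0157, Maf at 0.0175, Reln at 0.0280 and Igfbp5 at 0.0374. Of 14 capillary genes Plvap, which forms the diaphragms of fenestrae, was higher in all 8 libraries (4.22-fold in the median) and 7 were lower. None of the 13 basement membrane genes was higher in all 8, and 6 were lower.

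**Figure D2:**
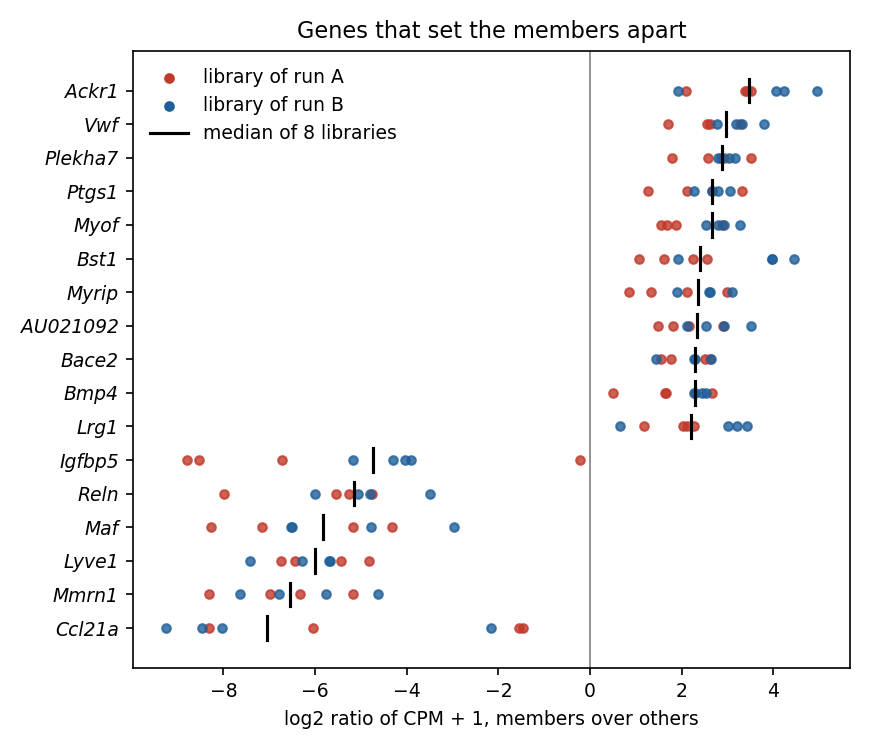
Log2 ratio of CPM + 1 (x axis), selected cells over the other endothelial cells of the same library, for 11 of the 12 genes with the highest median ratio and the 6 with the lowest (y axis), 1 point per library with the median as a bar. Ackr1 and Vwf head the list and all 11 upper genes lie right of 0 in all 8 libraries, while lymphatic genes such as Mmrn1 and Lyve1 lie at the bottom.

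The cells on both sides of the limit differed by degree. Over all libraries, cells with 3 of the 6 markers held 2079 CPM of Vwf, 209 of Ackr1 and 307 of Ptgs1. The 697 cells just outside, with 2 of the 6, held 1101, 137 and 197 CPM.

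Summed levels of markers of other cell types were above 0 in every library. They were lower in the selected than in the other endothelial cells in all 8 libraries for immune genes and in 7 for fibroblast genes. For adipocyte genes this held in 5 libraries, for mural and platelet genes in 4 each and for mesothelial genes in 2. The summed level of 15 immune genes was 3.67 to 155 CPM, with Cd3e, Ms4a1 and S100a9 at 0, and 4 of 7 platelet genes were at 0. The summed level of 10 fibroblast genes was 9.97 to 96.7 CPM in the 4 mesenteric libraries and 98.8 to 508 CPM in the 4 adipose libraries, with none of the 10 at 0. Mural cell genes summed to 471 to 623 CPM in the mesenteric and 593 to 1020 CPM in the adipose libraries, and mesothelial genes to 32.2 to 135 CPM and 89.7 to 385 CPM, where Wt1 and Lrrn4 were at 0. On each diet and in each run the adipose library was above the mesenteric one for all 3 lists. Adipocyte genes summed to 335 and 379 CPM in the mesentery and adipose chow libraries of run B and to 128 to 176 CPM in the other 6.

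The first comparison is the number of these cells in each tissue on each diet. They were most frequent in the mesentery on chow, where they made up 37.0% of the endothelial cells in run A (95% exact binomial interval 34.3 to 39.7) and 12.6% in run B (11.5 to 13.8). In the mesentery on high fat diet they made up 8.42% in run A (6.41 to 10.8) and 4.93% in run B (4.09 to 5.88). Both chow libraries were above both high fat libraries, by 4.39-fold in run A and 2.56-fold in run B. The intervals cover counting error only, and the gap between the 2 chow libraries was larger than any of them. In adipose tissue the cells made up 9.75% and 5.09% of the endothelial cells on chow and 8.57% and 3.36% on the high fat diet in runs A and B, so the diets overlapped.

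As group means, the share was 24.8% ± 17.2 (SD, n = 2) in the mesentery on chow, 6.68% ± 2.47 (SD, n = 2) in the mesentery on high fat diet, 7.42% ± 3.30 (SD, n = 2) in adipose tissue on chow and 5.97% ± 3.69 (SD, n = 2) in adipose tissue on high fat diet. The difference in mean log odds between high fat diet and chow was -1.44 in the mesentery (two-sided exact permutation p = 0.333, the smallest p that 2 libraries against 2 can give) and -0.29 in adipose tissue (exact permutation p = 0.667). Between the tissues the difference, mesentery minus adipose, was 1.34 on chow (exact permutation p = 0.333) and 0.19 on the high fat diet (exact permutation p = 1). With libraries exchanged only within a run, the diet difference in the mesentery had an exact permutation p of 0.5, the smallest that design allows. No share difference could therefore pass a threshold of 0.05 in this design.

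The direction in the mesentery held under the other choices of cells, but the size of the shares depended on them. With at least 2 of Adgrg6, Selp, Amigo2 and Slco2a1, the shares in the mesentery were 38.3% and 17.8% on chow and 9.95% and 7.88% on the high fat diet. Thinned to 1000 UMIs a cell, they were 28.2% and 2.88% on chow and 3.88% and 0.812% on the high fat diet, and the difference in log odds was -1.78 with an exact permutation p of 0.667, since the run A high fat library then lay above the run B chow library. All conditions were read again on the thinned counts, so barcodes that lost their Adipoq or Ptprc UMIs could enter the denominator. In the run B adipose chow library it held 3576 cells thinned and 2789 unthinned. Without the Adipoq condition the chow library of run B gave 10.6% in the mesentery and 3.39% in adipose tissue. Leaving out the run A chow library changed the log odds difference in the mesentery from -1.44 to -0.74, the smallest of the 4 values obtained by leaving out a library, and leaving out the run B chow library changed it to -2.14. In adipose tissue, leaving out the run A chow library or the run B high fat library turned the sign, to 0.0621 and 0.208. A share within sorted cells does not tell fewer of these cells from more of the others.

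**Figure D3:**
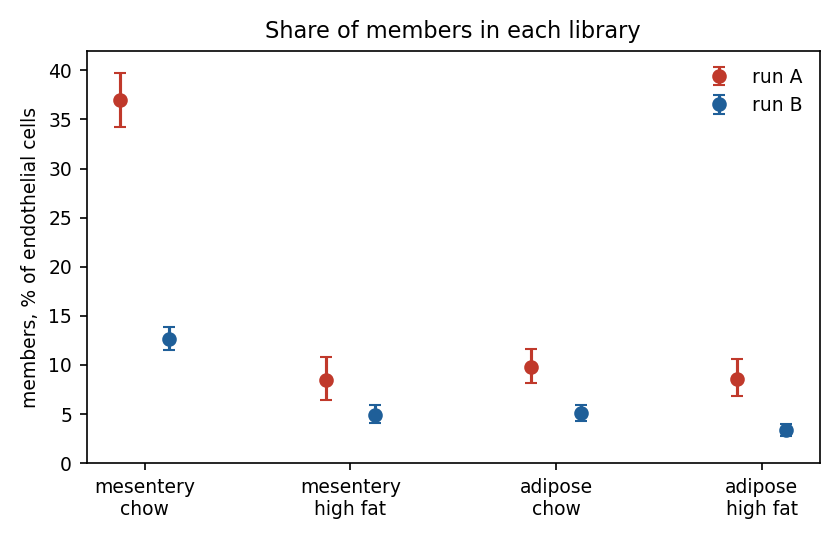
Selected cells as a percent of all endothelial cells (y axis) in each tissue and diet (x axis), 1 point per library, coloured by run, with 95% exact binomial intervals. The mesentery on chow is highest in both runs, at 37.0% and 12.6%, and in each group the run A library is above the run B library.

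The second comparison is between the tissues, within the selected cells. On chow and on the high fat diet, with the run in the fit, Nkx2-3, Gucy1a1 and Cldn5 were higher in the mesenteric cells and Ptn, Cp and Emcn in the adipose cells, and no difference in Vwf, Ackr1, Vcam1 or Icam1 passed the test. In edgeR's quasi-likelihood fit on the summed counts of the 8 libraries without the run, 1 of 8614 genes (0.0116%) passed an adjusted p of 0.05 on chow: Gucy1a1, a subunit of the soluble guanylate cyclase that senses nitric oxide. In normalised CPM (scaled by the trimmed mean of M values, as are levels of single genes in the selected cells from here on, with run A before run B in each pair) it stood at 351 and 484 CPM in the mesenteric libraries against 19.5 and 22.9 CPM in the adipose libraries, higher by 4.21 ± 0.39 on the log2 scale (adjusted p = 0.0391). With the run as a block, which pairs the libraries made in 1 run, 93 genes (1.08%) passed, 36 higher (0.418%) and 57 lower (0.662%) in the mesentery. DESeq2 called 22 without and 70 with the block, and shared 63 of the 93, without Madcam1, Ccl21a and Fosb among the genes named below. With the 2-of-4 marker choice and the block, 70 of the 93 chow calls and 12 of the 19 high fat calls described below remained. Of the genes named below that choice did not call Dcn, Fosb and Glycam1 on chow or Cldn5, Dcn, Emcn, Enpp2, Glycam1 and Tmem37 on the high fat diet. The call of Gucy1a1 without the block depended on single libraries: without any 1 of the other 6, no gene passed, and without either adipose high fat library 4 did.

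Nkx2-3, a homeobox factor of gut vessels that MAdCAM-1 depends on, was all but absent from the adipose libraries. On chow it lay at 305 and 339 CPM in the mesenteric libraries against 0 and 0 CPM in the adipose libraries, at least 128-fold higher when 3 counts over the adipose group are taken as the floor (adjusted p = 7.95e-06 with the run, 0.0525 without). On the high fat diet it lay at 208 and 195 CPM in the mesenteric libraries against 3.84 and 0 CPM in the adipose libraries (adjusted p = 0.000146 with the run). The adipose high fat value is 1 count. With the raw counts and totals of both libraries of a tissue pooled, which weights the deeper library more, the ratio was 190.4 with a counting interval of 33.8 to 7551, and ratios with an interval given below were pooled in the same way. The other endothelial cells showed the same split in unscaled CPM, with 30.4 to 136 CPM in the mesentery and 0 to 0.566 CPM in adipose tissue. Of the 9 tested genes of the mesenteric position list, Nkx2-3 and Madcam1 passed on chow. Gucy1a1 showed the same split on the high fat diet, at 154 and 149 CPM in the mesenteric libraries against 11.5 and 7.16 CPM in the adipose libraries (adjusted p = 0.000146 with the run). Plac8 lay at 372 and 158 CPM in the mesenteric libraries against 0 and 4.98 CPM in the adipose libraries on chow (adjusted p = 2.91e-05) and at 166 and 112 CPM in the mesenteric libraries against 7.68 and 7.16 CPM in the adipose libraries on the high fat diet (adjusted p = 0.000980).

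Of 10 pan-endothelial genes Cldn5 was higher and Emcn lower in the mesentery on either diet with the run. Cldn5, the main claudin of endothelial tight junctions, lay at 1189 and 763 CPM in the mesenteric libraries against 234 and 143 CPM in the adipose libraries on chow, higher by 2.34 ± 0.26 on the log2 scale (adjusted p = 0.000364 with the run), and by 1.69 ± 0.26 on the high fat diet (adjusted p = 0.0142, a call not made with the 2-of-4 marker choice). All 4 mesenteric libraries were above all 4 adipose libraries. Fxyd6, a regulator of the sodium pump, was higher in the mesentery by 2.25 ± 0.25 on chow and 1.78 ± 0.27 on the high fat diet (adjusted p = 0.000364 and 0.0142 with the run). Emcn (endomucin, an anti-adhesive surface sialomucin) went the other way, at 404 and 415 CPM in the mesenteric libraries against 1483 and 1126 CPM in the adipose libraries on chow, with a log2 difference of -1.71 ± 0.23 (adjusted p = 0.00128), and of -1.28 ± 0.23 on the high fat diet (adjusted p = 0.0416, not called with the 2-of-4 marker choice). Cytl1, a secreted cytokine-like protein, was higher in the mesentery on the high fat diet, at 1703 and 945 CPM in the mesenteric libraries against 119 and 158 CPM in the adipose libraries (adjusted p = 0.000146 with the run).

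Among the genes lower in the mesentery, Ptn (pleiotrophin, a heparin-binding growth factor) lay at 3.43 and 3.35 CPM in the mesenteric libraries against 609 and 749.5 CPM in the adipose libraries on chow (adjusted p = 0.000162 with the run) and at 3.85 and 4.14 CPM in the mesenteric libraries against 557 and 41.5 CPM in the adipose libraries on the high fat diet (adjusted p = 0.0453). Mme (neprilysin, a peptide-cleaving surface enzyme) lay at 0.980 and 0.418 CPM in the mesenteric libraries against 66.4 and 69.7 CPM in the adipose libraries on chow, where the mesenteric values rest on 3 counts (ratio 108, counting interval 35.8 to 535; adjusted p = 4.56e-05). Slco1a4, an organic anion transporter, had no count in the mesentery on chow, where it was at least 101-fold lower (adjusted p = 0.000707), and Wnt5b, a Wnt ligand, at least 44.8-fold lower (adjusted p = 0.00215). In each of these 4 genes both mesenteric libraries were below both adipose libraries on chow. Cp (ceruloplasmin, a copper ferroxidase) was lower in the mesentery, with log2 differences of -2.89 ± 0.31 on chow and -2.67 ± 0.37 on the high fat diet (adjusted p = 0.000299 and 0.00520).

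Steap4, a metalloreductase, and Susd4, a complement regulator, were lower in the mesentery on chow, with adjusted p = 0.000783 and 0.000779 with the run, the mesenteric values of Susd4 resting on 2 counts. On the high fat diet Igf1 (insulin-like growth factor 1) lay at 3.85 and 38.3 CPM in the mesenteric libraries against 108 and 160.4 CPM in the adipose libraries (adjusted p = 0.0255). Tmem37 had 2 counts in the mesentery there and gave a ratio of 24.2 with a counting interval of 6.24 to 207 (adjusted p = 0.0477). Of 13 basement membrane genes, Col4a2 (a collagen IV chain) and Sparc (a collagen-binding matrix protein) were lower in the mesentery on chow, with log2 differences of -1.26 ± 0.27 and -1.36 ± 0.25 (adjusted p = 0.0349 and 0.0165). Of 14 tested haemostasis genes F8 (coagulation factor VIII) was lower, with a difference of -2.21 ± 0.32 (adjusted p = 0.00311), and of 14 tested venous identity genes Lrg1 was lower, with a difference of -1.24 ± 0.24 (adjusted p = 0.0187). Aplnr, the apelin receptor and the 1 of 14 capillary genes to pass, lay at 7.35 and 23.0 CPM in the mesenteric libraries against 39.0 and 150.3 CPM in the adipose libraries (adjusted p = 0.0119).

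Dcn, a matrix proteoglycan of fibroblasts, was lower in the mesentery, with log2 differences of -4.14 ± 0.49 on chow and -4.80 ± 0.75 on the high fat diet (adjusted p = 0.000545 and 0.0147). It moved with the fibroblast list, whose sum was above all 4 mesenteric values in each adipose library, and 1 of the 3 fibroblast genes that could be tested passed. The mural and mesothelial sums were also higher in the adipose library of each run and diet, and none of 3 and 2 tested genes of these lists passed. The part of fibroblast, mural and mesothelial RNA in the genes on the adipose side was not tested. Fosb and Hspb1 were the 2 of 19 immediate early and heat shock genes to pass on chow, Fosb at 317 and 4.18 CPM in the mesenteric libraries against 1312 and 21.9 CPM in the adipose libraries (adjusted p = 0.0329) and Hspb1 at 3351 and 556 CPM in the mesenteric libraries against 1069.6 and 283 CPM in the adipose libraries (adjusted p = 0.00809). Both were far higher in run A than in run B, and without the run in the fit leaving out the adipose run A library turned Fosb to 2.86 and leaving out the mesentery run A library turned Hspb1 to -0.34. On the high fat diet no gene passed without the run (171 had an unadjusted p under 0.05, DESeq2 called 12), and 19 genes (0.221%) passed with it, 10 higher (0.116%) and 9 lower (0.104%) in the mesentery. The number called with the run ranged on chow from 27, without the adipose run B chow library, over 49, without its run A partner, to 171 and 175 without the run B and run A adipose high fat libraries. On the high fat diet it ranged from 12, without the run A mesentery high fat library, to 44 and 45 without the run B and run A mesentery chow libraries and 59 without the run B adipose high fat library, which gave 1 call without the run.

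Of 14 tested venous identity genes only Lrg1 passed between the tissues on chow and none on the high fat diet, and of 14 leukocyte adhesion genes Madcam1, Glycam1 and Emcn passed on chow and Glycam1 and Emcn on the high fat diet. On chow with the run, Vwf differed by -0.22 ± 0.24, Ackr1 by 0.26 ± 0.40, Vcam1 by 0.13 ± 0.34, Icam1 by -0.17 ± 0.34 and Nr2f2 by -0.33 ± 0.26 (adjusted p = 0.966, 0.989, 1.000, 1.000 and 0.909). The standard errors of 0.24 to 0.40 leave room for moderate differences in either direction.

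**Figure D4:**
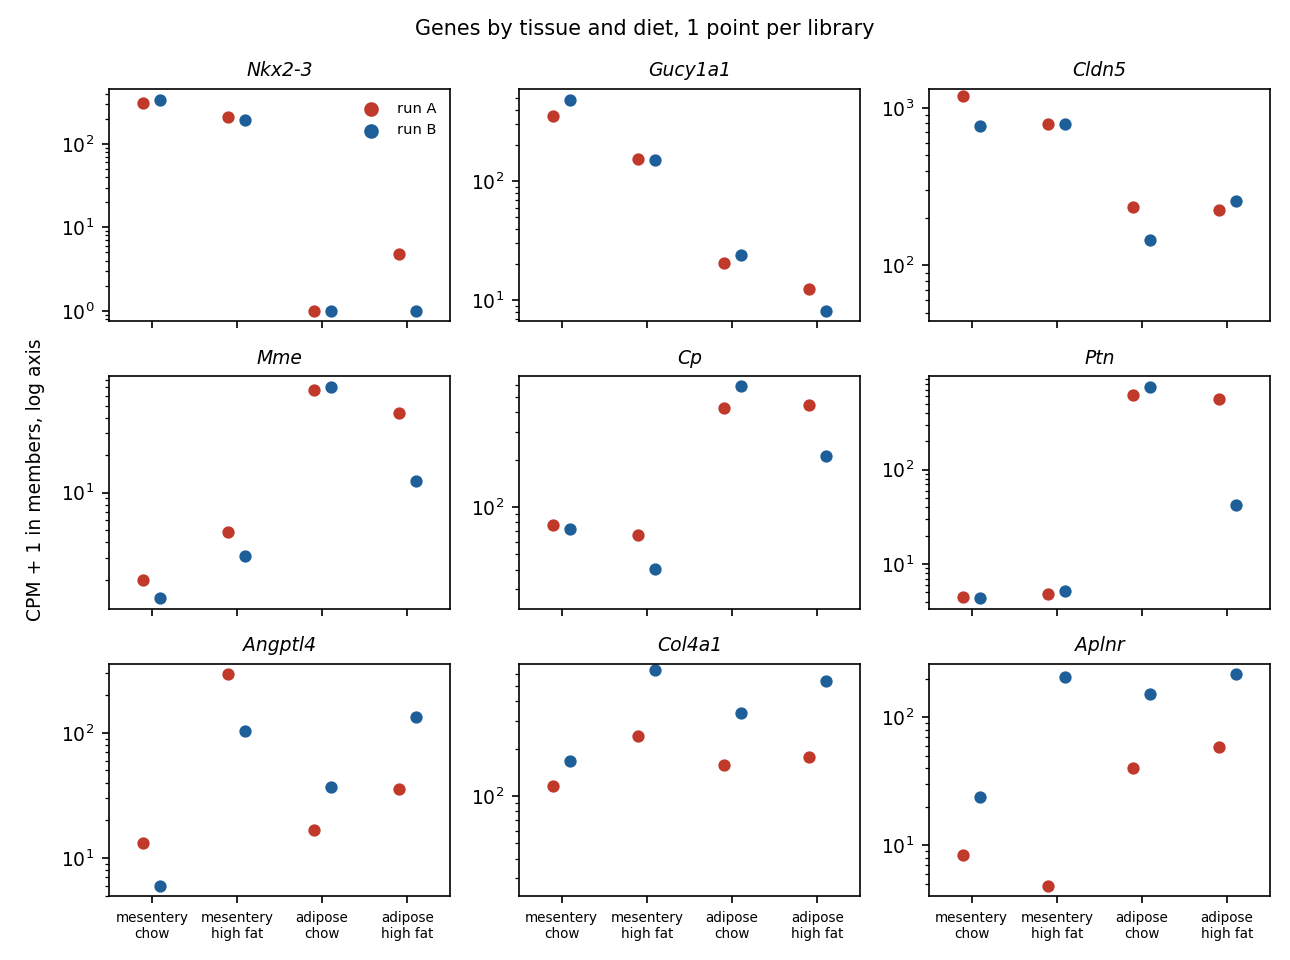
Level in the selected cells (CPM + 1, log y axis) of 9 genes by tissue and diet (x axis), 1 point per library, coloured by run. Nkx2-3, Gucy1a1 and Cldn5 lie higher in all 4 mesenteric libraries and Mme, Cp and Ptn in all 4 adipose libraries, while Angptl4 and Col4a1 are higher in the mesentery on high fat diet than on chow in each run and Aplnr differs in direction between the runs there.

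A few mesenteric cells carried the genes of high endothelial venules, the vessels through which lymphocytes enter lymph nodes. Glycam1, a mucin ligand of L-selectin, had a UMI in 86 selected cells, and 26 cells with 10 or more Glycam1 UMIs held 7750 of all 7837 Glycam1 counts. These 26 cells were all mesenteric, 15 and 4 from the chow libraries and 6 and 1 from the high fat libraries of runs A and B. They also held 716 of the 946 counts of Madcam1, the ligand of the gut-homing integrin of lymphocytes. On chow both genes passed the tissue test with the run: Madcam1 lay at 177 and 161 CPM in the mesenteric libraries against 0 and 0 CPM in the adipose libraries, at least 66.8-fold higher (adjusted p = 0.0224), and Glycam1 was at least 389.5-fold higher (adjusted p = 0.0146). Ccl21a, a chemokine of lymphatics and high endothelial venules, lay at 1355 and 563 CPM in the mesenteric libraries against 35.1 and 6.97 CPM in the adipose libraries (adjusted p = 0.0475), for 1 of several near-identical gene copies whose reads may be split. On the high fat diet Glycam1 (adjusted p = 0.0453) and Enpp2 passed. Enpp2, which codes for the lysophospholipase autotaxin, lay at 855 and 67.3 CPM in the mesenteric libraries against 7.68 and 10.0 CPM in the adipose libraries (adjusted p = 0.0181). Without the 26 cells, a choice made after seeing the data, 91 of the 93 chow calls and 17 of the 19 high fat calls remained, and those lost were Ccl21a and Glycam1 on chow and Enpp2 and Glycam1 on the high fat diet.

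The third comparison is between the diets, within the selected cells. In the mesentery no gene (0.0% of 8614) passed without the run in edgeR's quasi-likelihood fit, where 112 had an unadjusted p under 0.05 and DESeq2 called 1, Angptl4. With the run as a block 13 genes (0.151%) passed, 8 higher (0.0929%) and 5 lower (0.058%) on the high fat diet, and DESeq2 called 13 with the block. Angptl4, a secreted inhibitor of lipoprotein lipase, stood at 293 and 102 CPM on high fat food against 12.2 and 5.02 CPM on chow. It rose by 4.46 ± 0.60 on the log2 scale (adjusted p = 0.00880 with the run), and it was the 1 of 15 tested lipid handling genes to pass. Col4a1 and Col4a2, the collagen IV chains of basement membrane, rose together. Col4a2 stood at 108 and 378 CPM on high fat food against 40.7 and 92.0 CPM on chow, a rise of 1.84 ± 0.26 (adjusted p = 0.00936), and Col4a1 at 239 and 635 CPM on high fat food against 115 and 166 CPM on chow, a rise of 1.57 ± 0.26 (adjusted p = 0.0348). They were 2 of 13 basement membrane genes. The 2 genes lie head to head on chromosome 8, Col4a1 at chr8:11198423-11312826 on the minus strand and Col4a2 at chr8:11312805-11449287 on the plus strand of GRCm38.

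Cyp1a1, a cytochrome P450 and the standard target of the aryl hydrocarbon receptor, fell. It stood at 0 and 7.24 CPM on high fat food against 81.3 and 122 CPM on chow and fell by 4.40 ± 0.52 (adjusted p = 0.00732 with the run), the high fat values resting on 7 counts. Gucy1a1 fell by 1.40 ± 0.24, from 351 and 484 to 154 and 149 CPM (adjusted p = 0.0368, not called with the 2-of-4 marker choice). In both genes the high fat libraries were below both chow libraries. Rflnb, which codes for a filamin-binding protein, and Tcim rose by 1.63 ± 0.27 and 1.43 ± 0.26 (adjusted p = 0.0348 and 0.0443).

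Of 14 capillary genes Car4 (carbonic anhydrase 4) and Aplnr passed as higher, but on run B alone. Car4 stood at 3.85 and 135 CPM on high fat food against 2.45 and 31.4 CPM on chow, where the first value is 1 count (adjusted p = 0.0362). Aplnr stood at 3.85 and 206 CPM on high fat food against 7.35 and 23.0 CPM on chow, so that it was lower on the high fat diet in run A (adjusted p = 0.0348). Without the run B high fat library the differences, with no run in the fit, were -2.00 for Car4 and -1.84 for Aplnr. Cfd (adipsin), the 1 of 5 tested adipocyte genes to pass, stood at 0 and 2.07 CPM on high fat food against 2.94 and 73.6 CPM on chow (adjusted p = 0.00732), and the adipocyte list summed to 176 and 146 CPM with the high fat food and 164 and 335 CPM on chow. The erythroid gene Hbb-bs rose and Rgs16 fell, both named after their values were seen, with log2 differences of 4.70 and -3.79 (adjusted p = 0.0348 and 0.0443 with the run). The erythroid list summed to 21.5 and 119 CPM with the high fat food and 1.34 and 3.55 CPM on chow, and the part of adipocyte and red cell RNA in these calls was not tested.

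The number of diet calls in the mesentery with the run moved with single libraries. It was 5 without the run B mesentery high fat library and 5 without the run B adipose chow library, 20 and 37 without the run B and run A mesentery chow libraries, and 55 and 72 without the run B and run A adipose high fat libraries. With the 2-of-4 marker choice it was 19, which included 10 of the 13 and not Aplnr, Gucy1a1 or Rgs16, without the Adipoq condition 7 and without the 26 Glycam1-rich cells 21, which included all 13. DESeq2 with the block shared 7 of the 13 and did not call Aplnr, Car4, Cfd, Cyp1a1, Hbb-bs or Rgs16. It gave no adjusted p for 6179 of the 8614 genes in this comparison, and those genes could not be called. Whether the genes it did not call were among them was not examined.

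In adipose tissue no gene (0.0%) passed with or without the run, where 112 had an unadjusted p under 0.05 without it and 443 with it, and DESeq2 called none. Without the filter on low counts 12 genes passed without the run and 67 with it. The smallest p-values with the run belonged to Scarb1, the high density lipoprotein receptor, at 273 and 432 CPM on the high fat diet against 125 and 104 CPM on chow, a log2 difference of 1.70 ± 0.32 (adjusted p = 0.166), and to Hspb1, Trim2 and Ptgs2. Without the run A adipose high fat library 58 genes passed with the run, without the run A and run B mesentery chow libraries 13 and 9, without the run B adipose high fat library 5, and without the run A and run B adipose chow libraries 1 and 2. The test of whether the diet differed between the tissues called no gene (0.0%) with or without the run, with 44 and 217 genes at an unadjusted p under 0.05 and none called by DESeq2. Without the run B adipose high fat library it called 3 genes with the run, and without the filter on low counts 1 without the run and 11 with it.

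The activation and adhesion genes did not pass between the diets in either tissue. In the mesentery, with the run, Vcam1 stood at 736 and 314 CPM on high fat food against 2368 and 315 CPM on chow, a log2 difference of -0.89 ± 0.34 (adjusted p = 0.701), and Icam1 differed by -0.22 ± 0.34 (adjusted p = 1.000). In adipose tissue Vcam1 differed by -0.99 ± 0.34 and Icam1 by -0.63 ± 0.35 (adjusted p = 0.871 and 0.997), so all 4 differences lay below 0 and none passed the test. Vwf differed by -0.15 ± 0.24 and -0.40 ± 0.24 and Nfkbia, the inhibitor that NF-kB induces, by 0.10 ± 0.24 and -0.15 ± 0.25 in the mesentery and adipose tissue. None of the 14 leukocyte adhesion genes, the 14 NF-kB genes or the 14 tested venous identity genes passed in either tissue. The fatty acid genes Cd36 (a fatty acid transporter) and Fabp4 (a fatty acid binding protein) differed by 0.27 ± 0.54 and 0.46 ± 0.33 in the mesentery and 1.23 ± 0.56 and 1.16 ± 0.33 in adipose tissue, also short of the threshold (adjusted p = 1.000, 1.000, 0.956 and 0.562).

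Whether the selected cells answered the diet differently from the other endothelial cells was tested within libraries, with the library as a block. No gene (0.0% of 9857) passed in the mesentery, where 372 had an unadjusted p under 0.05, and none (0.0%) in adipose tissue, where 190 did. DESeq2 called 4 genes in the mesentery (Tgfbi, Lifr, Csf2rb2 and Cfb) and none in adipose tissue. Leaving out the run A adipose chow library or the run A mesentery high fat library gave 2 calls in the mesentery, and leaving out the run B mesentery high fat library 1. For the 6 markers in all endothelial cells, the log2 diet differences in the mesentery with the run, given as description, were -2.04 for Adgrg6, -1.84 for Selp, -1.93 for Sele, -1.63 for Rnd1, -1.89 for Amigo2 and -2.00 for Slco2a1, all lower on the high fat diet. They restate the shares in part, since the selected cells held 845 of 1067 Adgrg6 and 4264 of 5548 Selp counts of the run A mesentery on chow, and these sums cannot tell fewer marked cells from less RNA of a marker per cell.

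More genes passed between the runs, a comparison of 4 libraries with 4 added after seeing the data, than between tissues or diets, which set 2 libraries against 2. With the groups in the fit, 2001 of 8614 genes (23.2%) differed between run B and run A, 895 higher in run B (10.4%) and 1106 lower (12.8%). DESeq2 called 1232. All 19 immediate early and heat shock genes, which cells switch on within minutes of stress, were lower in run B, with a median log2 difference of -3.14 against 0.0150 over all genes tested. Their summed level was 14584 to 26865 CPM in run A and 2042 to 3481 CPM in run B. The fall was not particular to the selected cells: in the other endothelial cells the sum was 15876 to 20891 CPM in run A and 2453 to 3383 CPM in run B. Fos lay at 363 to 3531 CPM in run A and 16.3 to 25.9 CPM in run B, with a log2 difference of -5.97 ± 0.33 (adjusted p = 1.94e-08), and Atf3 had a log2 difference of -7.45 ± 0.33 (adjusted p = 2.89e-09). Both the feeding protocol and the tissue were the same in the 2 runs as far as the labels say, and the protocol names Actinomycin D, a transcription blocker, in its buffers for all samples. What else differed between the runs cannot be told apart here.

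NF-kB target genes and cytokines followed. Of 14 NF-kB feedback and target genes 11 were lower in run B and none higher, with a median of -1.56. Nfkbia lay at 2275 to 3469 CPM in run A and 234 to 327 CPM in run B, with a log2 difference of -3.48 ± 0.19 (adjusted p = 1.61e-08). Of 15 tested chemokine and cytokine genes 6 were lower (Cxcl1, Cxcl2, Cxcl10, Cx3cl1, Il6 and Csf3) and 2 higher (Cxcl12 and Tnfsf10). Csf3, the granulocyte colony-stimulating factor, lay at 73.0 to 301 CPM in run A and 0 to 0.995 CPM in run B, with a log2 difference of -9.28 ± 0.40 (adjusted p = 2.81e-09). The inducible adhesion molecules moved with them: Icam1 lay at 707 to 1805 CPM in run A and 152 to 324 CPM in run B, with a log2 difference of -2.62 ± 0.26 (adjusted p = 6.26e-06), and Vcam1 at 619 to 2368 and 269 to 544 CPM, with a log2 difference of -1.71 ± 0.25 (adjusted p = 0.000232). For Icam1, Vcam1, Nfkbia and Csf3 no library of run B reached the lowest of run A. In the other endothelial cells Icam1 and Vcam1 were also lower in run B, with log2 differences of -2.81 and -1.52.

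Vwf, Ptgs1 and Ackr1 did not pass between the runs. Vwf differed between the runs by -0.31 ± 0.17 (adjusted p = 0.219), Ptgs1 by -0.11 ± 0.18 (adjusted p = 0.713) and Ackr1 by -0.40 ± 0.29 (adjusted p = 0.345). Of 14 tested venous identity genes 4 were lower in run B (Lrg1, Vcam1, Icam1 and Tmem252) and 3 higher (Nr2f2, Ephb4 and Flrt2). Of the tested haemostasis and Weibel-Palade genes, Cd63 and Procr were among those lower in run B and Plau was higher, with log2 differences of -1.42 ± 0.30 for Cd63 and -0.80 ± 0.17 for Procr (adjusted p = 0.00403 and 0.00400). Of 6 tested prostanoid genes Ptgs2 and Ptgis were lower. Capillary and lipid genes were higher in run B: 10 of 14 capillary genes were higher and 1 lower, with a median of 1.70, and 10 of 15 lipid handling genes were higher and 1 lower, with a median of 1.35. Cd36 lay at 19.5 to 466 CPM in run A and 1253 to 2925 CPM in run B (adjusted p = 0.000110), Gpihbp1, which anchors lipoprotein lipase to capillaries, had a log2 difference of 3.06 ± 0.34 (adjusted p = 1.92e-05) and Fabp4 of 1.77 ± 0.24 (adjusted p = 0.000132). Adipocyte genes moved the same way, with Cfd, Car3 and Retn higher in run B among 5 tested, and their part in the lipid list was not tested. The 4 run B libraries held 5168 to 7582 CPM of the capillary list against 2723 to 3568 CPM in run A. In the other endothelial cells the same list held 6402 to 13958 CPM in run B against 2553 to 3544 CPM in run A.

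**Figure D5:**
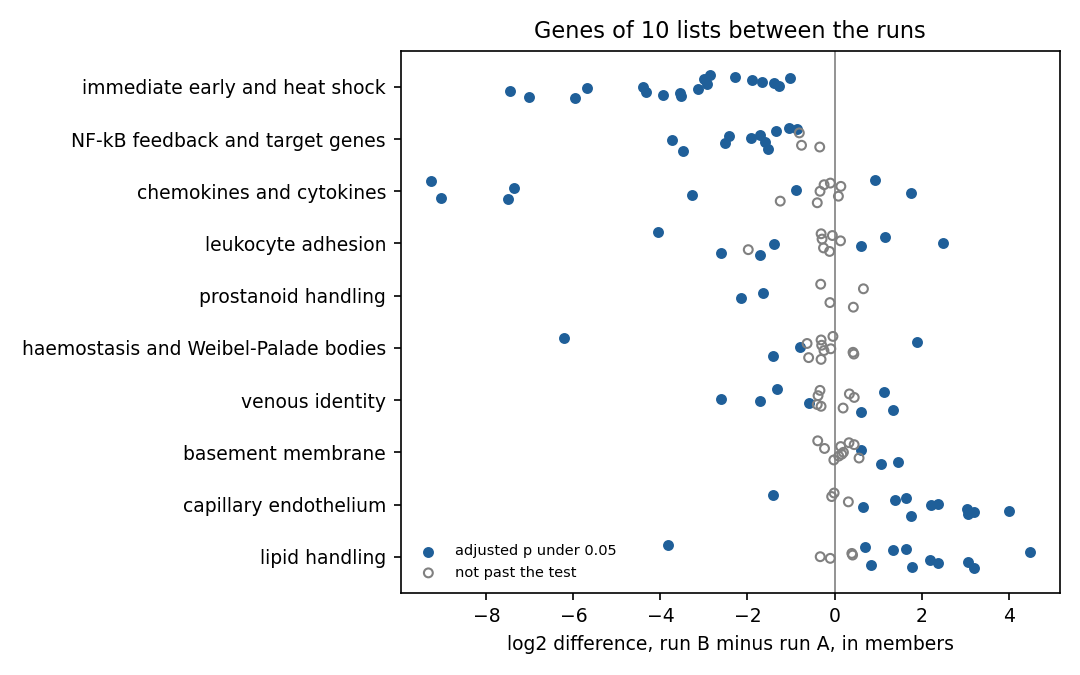
Log2 difference between run B and run A in the selected cells (x axis) for the tested genes of 10 lists (y axis), 1 point per gene, filled where the adjusted p was under 0.05. All 19 immediate early and heat shock genes lie left of 0, 11 of 14 NF-kB genes pass on the left, and most capillary and lipid handling genes lie on the right.

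The run difference was not the same in the selected and the other endothelial cells for 490 of 9857 genes (4.97%), by the interaction of class and run with the library as a block, and 265 (2.69%) had a lower interaction value in the selected cells. Nfkbia had a log2 difference between the runs of -3.48 in the selected cells and -2.42 in the others, and the interaction of -0.99 ± 0.12 passed (adjusted p = 0.000242). For Nr2f2 the selected cells had 0.60 ± 0.20 (adjusted p = 0.0385) while the others had -0.77, an interaction of 1.37 ± 0.28 (adjusted p = 0.0109). Fabp4 rose less in the selected cells, with an interaction of -1.84 ± 0.28 (adjusted p = 0.00170), and Vwf and Nkx2-3 had interactions of 0.60 ± 0.13 and 0.93 ± 0.23 (adjusted p = 0.0140 and 0.0412). The choice of cells enters these values, since Sele and Rnd1 helped to choose cells in run A and hardly did in run B. The other endothelial cells are a mixture that also differed between the runs. Their lymphatic list summed to 5196 to 8112 CPM in run A and 753 to 2236 CPM in run B. Their capillary list summed to 2553 to 3544 CPM in run A and 6402 to 13958 CPM in run B. The part of this mixture in the interactions was not tested.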

How the data were processed

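Endothelial cells of 8 pooled samples were measured by droplet single-cell RNA sequencing (10x, 3' ends). The deposited values are raw UMI counts of genes in barcodes, in 1 matrix per sample. Per the file headers the software version was 3.0.2 for run A and 5.0.0 for run B, and per the submitters' processing notes the build was mm10 and Seurat 4.3.0 was used. The feature lists held 31053 and 32285 identifiers, and the 30406 shared ones, with 99.58% to 99.93% of the UMIs of a library, were used.

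Selected cells and gene lists were chosen with earlier results of these data known. Counts of the selected cells were summed per library and tested with edgeR 4.0.16 (R 4.3.3), quasi-likelihood, TMM scaling and filterByExpr, in 1 fit over all 8 libraries without a block, with Benjamini-Hochberg adjustment over 8614 genes at 0.05. Floors are 3 counts over a group. The replicate letters pair the libraries, since the labels say the experiment was repeated, and deviations of same-letter libraries correlated at 0.52 to 0.68 over 6 pairs of groups, so fits with the run as a block are given beside. DESeq2 1.42.0 was an alternative. Levels against other cells are plain CPM, and levels in tests between groups TMM-scaled CPM. Shares were compared by exact permutation of log odds (scipy 1.17.1), with exact Clopper-Pearson intervals at 95%, which cover counting error only. The fit was tested on simulated data with known changes and no difference between the runs.

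Named were the 6 markers, a list of pre-set genes, up to 6 called genes per direction with the largest change that moved alike in both runs and had at least 10 counts in each library of the higher group (or the 2 with the smallest p), called genes of the lists, and the 12 highest and 6 lowest genes against other cells among those of at least 50 CPM. In the comparison of runs only examples are named, and results of some genes are not reported here. Scrublet's automatic threshold marked 49 barcodes (0.204%), which is too few to have worked, so no doublets were removed. An alternative removed 858 (3.58%), with 28 selected cells. Alternatives were another test, scaling and filter, other marker and mitochondrial limits, thinning to 1000 UMIs, another denominator, and each library left out. Added after seeing the data were the 4-marker choice, the choice without the Adipoq condition or without Glycam1-rich cells, the comparison of runs the markers in all endothelial cells and the block together with the other alternatives.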

Additional observations from a re-analysis of the deposited data

How the results depend on the processing

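The shares kept their direction in the mesentery and, on chow, between the tissues under all alternatives. Leaving out single libraries gave log odds differences of -2.14 to -0.739 for the diet in the mesentery, -0.784 to 0.208 for the diet in adipose tissue, 0.641 to 2.04 for the tissue on chow and -0.306 to 0.686 for the tissue on the high fat diet, where a limit of 2 of 6 markers gave -0.0389. A lone library left in a group was assumed to vary like the others. The replicate block, which pairs the libraries of a run, moved the number of called genes from 0 to 13 for the diet in the mesentery, from 1 to 93 for the tissue on chow and from 0 to 19 for the tissue on the high fat diet, and left 0 for the diet in adipose tissue and for the interaction. DESeq2 gave 1, 22 and 12 without and 13, 70 and 27 with the block. With the block it gave no adjusted p for 6179 of 8614 genes for the diet in the mesentery and for 2839 for the tissue on the high fat diet. Without the filter on low counts the numbers were 31 for the diet in the mesentery, 12 in adipose tissue, 109 and 66 for the tissue on chow and high fat diet, and 1 for the interaction, and with the block 119, 67, 296, 97 and 11. With the block and, for the diet in the mesentery, the tissue on chow and the tissue on the high fat diet, limma-voom gave 17, 130 and 11, other size factors 13, 95 and 19, at least 4 markers 2, 49 and 11 and leaving out Scrublet doublets 23, 106 and 17. On chow the 1 call between tissues went to 0 with at least 4 markers, without Scrublet doublets, with the 4-marker choice and without the Adipoq condition. With the block, the 4-marker choice gave 19, 4, 97 and 16 calls for the diet in the mesentery, the diet in adipose tissue, the tissue on chow and the tissue on the high fat diet, dropping the Adipoq condition gave 7, 4, 89 and 11, and dropping Glycam1-rich cells 21, 0, 114 and 20. Leaving out single libraries gave 0 to 72, 0 to 58, 0 to 175, 0 to 59 and, for the interaction, 0 to 3 calls over the fits with and without the block. DESeq2 called 1232 genes between the runs, and leaving out libraries 1363 to 2096. For the diet effect in selected against other cells DESeq2 gave 4 and no filter 77 in the mesentery, with 0 to 2 when libraries were left out, and no filter gave 4 in adipose tissue. Single genes turned sign when 1 library was left out: Car4 (-2.00 to 4.90) and Aplnr (-1.84 to 3.92) for the diet in the mesentery, Hspb1 for the diet in adipose tissue (-0.25 to 2.42), and Fosb (-7.32 to 2.86) and Hspb1 (-0.34 to 2.78) for the tissue on chow. Except where stated, the cause was not tested. In simulated data for the diet in the mesentery (8228 genes), 97 of 100 genes changed by 2 on the log2 scale were called without the block and 96 with it, 35 and 30 of 100 changed by 1, and 10 and 9 unchanged genes. The simulated libraries had no difference between the runs, and their spread was estimated with the run in the fit. These numbers therefore do not tell how many such changes the fit without the block could find in the real data. The smallest library held 55 cells, and several low values rest on 7 or fewer counts.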

Other observations

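Interferon and antigen presentation genes, which endothelium raises in response to interferon, were measured in full in the selected cells. None of the 16 passed between diets or tissues with the run as a block, where their median log2 difference between mesentery and adipose tissue was 0.72 on chow and 0.42 on the high fat diet, against 0.00840 and 0.00180 over all genes tested. Between the runs Gbp4 was higher in run B and Isg15 and H2-K1 lower, with edgeR's adjusted p below the threshold. Of the 9 tested position genes, Hoxb3, Hoxb5, Hoxb6 and Hoxd8 were higher in run B.

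Some genes were all but missing from 1 run. Fam89b had 2 UMIs in all endothelial cells of run A and 3005 in run B, Cpne1 1 and 3002, Gng10 1 and 1803, and Nme2 28 and 31716. Of the 895 genes called higher in run B, 9 had 3 or fewer UMIs in all endothelial cells of run A, and Fdx2, Tnfsf13, Hgs and Eif4ebp3 had none there while each run B library held at least 10 in its selected cells. No gene was missing from run B in the same way. These genes were named after their values were seen. The feature lists and software versions differ between the runs, so how the reads were counted and how the cells differed cannot be told apart for them.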
